A study of Mus musculus with 16 samples.

Results

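The comparison described here was the effect of genotype on the day-night change of gene expression in the mouse hypothalamus. It was measured as an interaction, the log2 change from ZT1 to ZT13 in ASIC1a-/- mice minus the log2 change from ZT1 to ZT13 in WT mice. All 16 of the 16 libraries of the series entered it, 4 for each combination of genotype and time, and of the 55401 genes in the files 15808 exceeded 1 CPM (counts scaled to a common library total) in 1 library or more and were tested. ZT (Zeitgeber time) counts the hours since lights on, so ZT1 lies at the start of the light phase, when mice rest, and ZT13 at the start of the dark phase, when they become active. The 4 groups were WT at ZT1, WT at ZT13, ASIC1a-/- at ZT1 and ASIC1a-/- at ZT13. All mice were males of the C57BL/6 strain aged 3 months, and the ASIC1a-/- mice carried a global deletion, present from conception and in every tissue. No mouse gave more than 1 library, so changes between times compare different animals. An interaction above 0 means a larger rise or a smaller fall in ASIC1a-/- mice, and it is shown as a log2 value with its SE or 95% interval.

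ASIC1a is a subunit of proton-gated sodium channels of neurons and is encoded by *Asic1*. Immediate early genes such as *Fos*, *Egr1* and *Nr4a1* encode transcription factors and signalling regulators that neurons transcribe within minutes of a stimulus, without new protein synthesis, through kinases that act on factors already bound at their promoters, among them CREB at cAMP response elements (CRE) and SRF at CArG boxes. The circadian clock is a feedback loop in which BMAL1 (encoded by *Arntl*) and CLOCK activate the *Per* and *Cry* genes, whose proteins repress BMAL1 and CLOCK. The hypothalamus holds the central clock in the suprachiasmatic nucleus and the neurons that control hormone release, feeding and body temperature. The question put to these data was which of its daily changes differ when ASIC1a is missing.

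Promoter sequences are shown for 5 of the 8 genes with the smallest p for the interaction, to set side by side the letters known to bind these factors. No sequence is shown for the other 3, *Egr1*, *Egr2* and *Gh*. They cover the 250 bases before the start site in RefSeq (GRCm38.p6), read 5′ to 3′ on the strand of the gene, and the capitals mark the CRE core CGTCA, its reverse complement TGACG, or the full CRE TGACGTCA, which holds both. *Nr4a1* (plus strand, chr15:101266596-101266845) and *Ddit4* (minus strand, chr10:59951771-59952020) passed the test of the interaction, and *Btg2* (minus strand, chr1:134079156-134079405), *Fos* (plus strand, chr12:85473640-85473889) and *Fosb* (minus strand, chr7:19310046-19310295) were just outside the threshold.
Nr4a1: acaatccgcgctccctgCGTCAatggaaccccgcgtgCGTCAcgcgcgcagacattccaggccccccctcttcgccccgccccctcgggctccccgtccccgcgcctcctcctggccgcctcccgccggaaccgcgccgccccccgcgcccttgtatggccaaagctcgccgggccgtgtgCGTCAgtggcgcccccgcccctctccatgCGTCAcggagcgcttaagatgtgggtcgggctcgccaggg
Ddit4: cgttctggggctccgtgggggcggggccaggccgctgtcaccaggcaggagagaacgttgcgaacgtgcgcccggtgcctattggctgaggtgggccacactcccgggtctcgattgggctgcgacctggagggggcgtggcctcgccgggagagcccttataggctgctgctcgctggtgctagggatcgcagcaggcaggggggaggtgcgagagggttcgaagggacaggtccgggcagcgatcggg
Btg2: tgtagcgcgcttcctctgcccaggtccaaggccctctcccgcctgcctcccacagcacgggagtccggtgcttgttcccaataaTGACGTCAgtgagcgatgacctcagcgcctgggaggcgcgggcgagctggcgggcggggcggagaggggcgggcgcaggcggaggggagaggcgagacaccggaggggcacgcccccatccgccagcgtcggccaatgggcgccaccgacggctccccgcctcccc
Fos: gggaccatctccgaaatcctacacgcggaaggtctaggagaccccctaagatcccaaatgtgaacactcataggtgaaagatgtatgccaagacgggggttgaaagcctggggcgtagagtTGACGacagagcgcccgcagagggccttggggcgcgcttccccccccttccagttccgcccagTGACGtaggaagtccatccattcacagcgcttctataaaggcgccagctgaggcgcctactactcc
Fosb: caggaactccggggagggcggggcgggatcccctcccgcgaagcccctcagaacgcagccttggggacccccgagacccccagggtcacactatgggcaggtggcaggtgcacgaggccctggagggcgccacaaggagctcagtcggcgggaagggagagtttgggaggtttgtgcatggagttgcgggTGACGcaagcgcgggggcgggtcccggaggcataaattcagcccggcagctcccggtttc

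The *Nr4a1* window held 4 CRE cores, at -233, -213, -69 and -40 from the start site, the *Fos* window 2, at -129 and -66, and the *Fosb* window 1, at -60. The *Btg2* window held a full CRE at -166, and the *Ddit4* window held no match to either. *Egr2* has 5 windows in RefSeq, of which 3 held 2 cores each and 2 held none. Of 32851 RefSeq windows of 300 bases (250 before and 50 after a start site), 20.8% held the CRE core on either strand and 1.79% the full CRE. Among 43 windows of 33 rapid immediate early genes, a list described later, 30 (69.8%) held the core and 5 (11.6%) the full element. Several of the 43 are alternative windows of the same gene, some of which overlap, and none is of *Egr1*. A CArG box, searched on both strands, was found in 6 of these 43 windows (14.0%), 4 of them among the 5 windows of *Egr2*, and in 1.63% of all windows. These matches describe the letters of the windows and do not show that a factor was bound.

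The interaction passed the test in 3 genes, 0.019% of those tested, and all 3 were above 0 (edgeR quasi-likelihood test, Benjamini-Hochberg adjusted p under 0.05). The genes were *Egr1*, *Nr4a1* and *Ddit4*, and each rose from ZT1 to ZT13 in ASIC1a-/- mice by more than in WT mice. No gene passed below 0. At an unadjusted p under 0.05 there were 618 genes (3.91%), 315 above 0 (1.99%) and 303 below (1.92%). The 3 genes lay on 3 chromosomes. *Nr4a1* (chr15:101254269-101274795) lay on the chromosome of the targeted gene *Asic1* (chr15:99670368-99701130). The part of DNA linked to the deletion in its interaction was not tested. All 3 had in common that the 4 ASIC1a-/- ZT13 libraries were above the 12 others, an order found in 49 genes (0.31%).

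*Egr1* (ENSMUSG00000038418, chr18:34859823-34864984, plus strand, GRCm38) encodes a zinc-finger transcription factor induced by neuronal activity. Its level was 18.7, 20.5, 22.5 and 19.4 CPM in the WT ZT1 libraries and 26.9, 29.2, 23.4 and 26.1 CPM in the WT ZT13 libraries. In ASIC1a-/- mice it was 24.2, 22.5, 24.3 and 20.9 CPM at ZT1 and 71.2, 56.9, 61.8 and 64.1 CPM at ZT13. The times did not overlap for *Egr1* in the ASIC1a-/- libraries, nor in the WT libraries, and the 4 ASIC1a-/- ZT13 libraries stood apart from the rest. The log2 change was 0.38 (adjusted p = 0.00372, edgeR) in WT and 1.47 (adjusted p = 1.2e-09, edgeR) in ASIC1a-/- mice, and the interaction was 1.08 ± 0.11 (SE, adjusted p = 0.000149, edgeR). *Egr1* thus rose in both genotypes, 1.30-fold in WT and 2.76-fold in ASIC1a-/- mice. Between genotypes it differed by a log2 of 0.18 at ZT1 (adjusted p = 0.68, edgeR) and 1.27 at ZT13 (adjusted p = 1.34e-08, edgeR).

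*Nr4a1* (ENSMUSG00000023034, chr15:101254269-101274795, plus strand) encodes an orphan nuclear receptor, also an immediate early gene, and the promoter window with 4 CRE cores shown above lies inside this span. The WT libraries held 9.94, 9.31, 10.7 and 10 CPM of *Nr4a1* at ZT1 and 9.15, 9.29, 9.72 and 12.2 CPM at ZT13, and these ranges overlapped. The ASIC1a-/- libraries held 11.4, 10.3, 12.1 and 10.2 CPM at ZT1 and 23.3, 24.9, 21 and 20.7 CPM at ZT13. The log2 change of *Nr4a1* was 0.01 in WT (adjusted p = 0.947, edgeR) and 1.03 in ASIC1a-/- mice (adjusted p = 6.45e-07, edgeR), an interaction of 1.02 ± 0.12 (SE, adjusted p = 0.00156, edgeR). Here the rise was seen in ASIC1a-/- mice, and the WT change had a 95% interval of -0.18 to 0.20.

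*Ddit4* (ENSMUSG00000020108, chr10:59949669-59951834, minus strand) encodes REDD1, an inhibitor of mTORC1 that is induced by stress and by glucocorticoids. Its levels were 20, 18.7, 19.2 and 20.8 CPM in WT at ZT1, 19.6, 19.6, 21 and 21.5 CPM in WT at ZT13, and 18.4, 19.4, 18.8 and 18.9 CPM in ASIC1a-/- mice at ZT1. In the ASIC1a-/- ZT13 libraries *Ddit4* was 26.4, 26.9, 26.7 and 27.3 CPM, the narrowest spread of its 4 groups (26.8 ± 0.37, SD, n = 4). The log2 change was 0.06 in WT (adjusted p = 0.414, edgeR) and 0.51 in ASIC1a-/- mice (adjusted p = 4.19e-07, edgeR), and the interaction was 0.45 ± 0.06 (SE, adjusted p = 0.00176, edgeR). In fold terms *Ddit4* was 1.04-fold higher at ZT13 in WT and 1.42-fold higher in ASIC1a-/- mice.

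**Figure D1:**
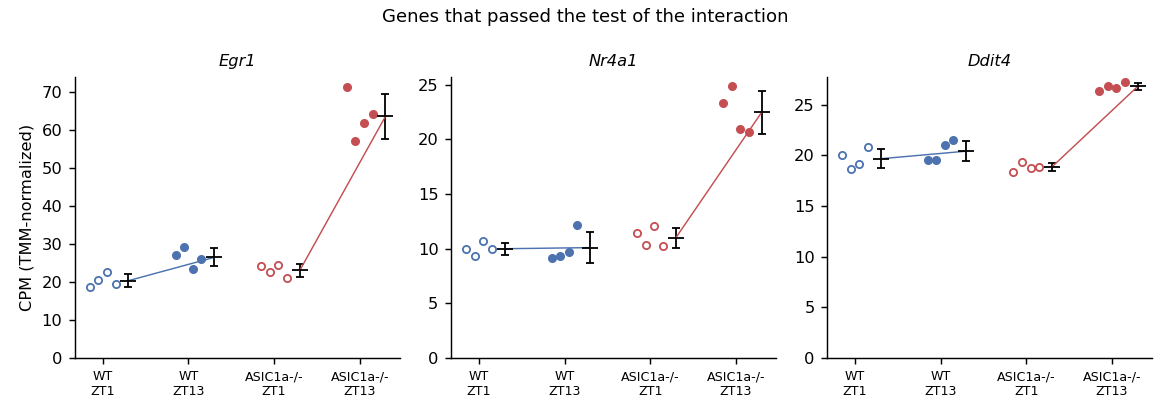
Each panel plots 1 of the 3 genes that passed the test of the interaction, *Egr1*, *Nr4a1* and *Ddit4*, with CPM (TMM-normalized, axis from 0) against group. Points are libraries (open ZT1, filled ZT13, blue WT, red ASIC1a-/-), black bars are the mean ± SD of 4 libraries and lines join the means of a genotype. In every panel the 4 ASIC1a-/- ZT13 libraries lie above the 12 others.

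The call of these 3 genes held when any 1 of the 16 libraries was left out. It also held under the other count models, scalings and filters that were run. Exceptions were *Nr4a1* on log2 TPM, whose adjusted p missed the threshold, and all 3 genes when the log2 CPM of *Gh*, a pituitary hormone gene described below, was added to the model. With that term the interactions were 1.16, 1.00 and 0.39, with adjusted p of 0.0718, 0.706 and 0.999 (edgeR) for *Egr1*, *Nr4a1* and *Ddit4*, and no gene of the 15808 passed, against 412 at an unadjusted p under 0.05. *Gh* had an interaction of -5.09 itself. With DESeq2 13 genes passed, 10 above 0 and 3 below, and with edgeR on all 30876 genes with any count 17 passed, 11 above 0 and 6 below, and the 3 genes were among them in both.

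The 6 genes next in order of p did not pass. They were *Btg2*, *Egr2*, *Gh*, *Fos*, *Fosb* and *AC102496.1*, with adjusted p from 0.0954 to 0.223 (edgeR), and 4 of the 6 were immediate early genes. *Btg2*, an antiproliferative factor induced by activity, had 9.1, 8.41, 8.44 and 9.44 CPM in WT at ZT1 and 9.69, 8.3, 8.82 and 10.9 CPM in WT at ZT13. In ASIC1a-/- mice *Btg2* went from 8.9, 9.55, 10.3 and 9.86 CPM to 16.2, 15.3, 15.1 and 15.2 CPM. Its ZT13 ASIC1a-/- libraries were above the 12 others, and the interaction was 0.59 (95% interval 0.37 to 0.81, adjusted p = 0.0954, edgeR).

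*Fos*, the founding member of the AP-1 factors, was higher at ZT13 in both genotypes. It was 6.06, 7.28, 6.64 and 6.13 CPM in WT at ZT1 and 13.6, 12.5, 8.9 and 17.3 CPM in WT at ZT13, against 6.27, 8.82, 6.59 and 6.98 CPM and 31.2, 29.6, 27 and 29.4 CPM in ASIC1a-/- mice. The change of *Fos* passed in WT (1.00, adjusted p = 0.000297, edgeR) and in ASIC1a-/- mice (2.03, adjusted p = 9.36e-08, edgeR). Their difference was 1.03 (95% interval 0.60 to 1.46) and did not pass (adjusted p = 0.209, edgeR), with WT ZT13 values that ranged from 8.9 to 17.3 CPM. Without WT ZT13 replicate 4, the WT library highest in *Fos* at ZT13, 7 genes passed in place of 3, adding *Btg2*, *Egr2*, *Fos* and *Tiparp*, the last named after its values were seen.

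*Egr2* and *Fosb* were low genes with large estimates. *Egr2*, a relative of *Egr1*, had 6 to 21 counts in each of the 12 libraries of the other groups and 75, 55, 84 and 57 counts in the ASIC1a-/- ZT13 libraries, with an interaction of 2.38. It exceeded 1 CPM, the filter for testing, in that group alone, so it was tested because it is high there, and its values are given as a description. *Fosb*, an AP-1 partner of *Jun* factors, ranged from 0.974 to 2.56 CPM in those 12 libraries and was 7.11, 4.46, 5.23 and 4.99 CPM in ASIC1a-/- mice at ZT13. Its interaction was 1.54 (95% interval 0.88 to 2.19, adjusted p = 0.212, edgeR).

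The other 2 of the 6 had an interaction below 0. *AC102496.1*, a long intergenic non-coding RNA on chromosome 18, was 4.33, 6.44, 3.82 and 2.25 CPM in WT at ZT1 and 6.4, 6.96, 7.34 and 9.37 CPM at ZT13, and in ASIC1a-/- mice 4.03, 5.49, 7.37 and 5.39 CPM at ZT1 and 3.21, 2.26, 3.96 and 3.08 CPM at ZT13. It rose in WT (0.84, adjusted p = 0.0263, edgeR) and fell in ASIC1a-/- mice (-0.83, adjusted p = 0.037, edgeR), but the interaction of -1.66 did not pass (adjusted p = 0.223, edgeR). *Gh*, growth hormone, was 0.475, 2.67, 0.253 and 0.684 CPM in WT at ZT1, 26.7, 10.9, 4.31 and 9.76 CPM in WT at ZT13, 3.08, 11.5, 3.31 and 2.96 CPM in ASIC1a-/- mice at ZT1 and 3.38, 3.05, 0.306 and 1.11 CPM in ASIC1a-/- mice at ZT13. The interaction of *Gh* was -5.09 with a 95% interval from -7.18 to -2.99 (adjusted p = 0.2, edgeR).

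**Figure D2:**
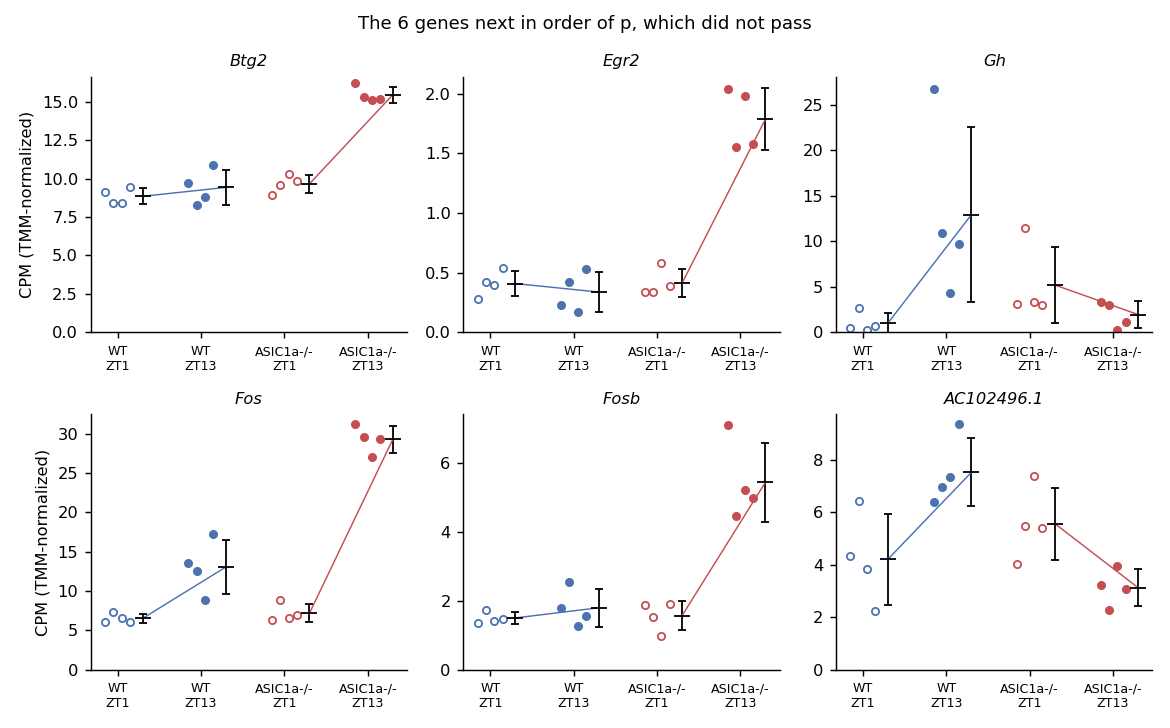
Each panel plots 1 of the 6 genes just outside the threshold, with CPM (TMM-normalized, axis from 0) against group. Points are libraries, black bars the mean ± SD of 4 libraries and lines join the means of a genotype. *Btg2*, *Egr2*, *Fos* and *Fosb* have their 4 ASIC1a-/- ZT13 libraries above the 12 others, while *Gh* and *AC102496.1* have their highest values in WT at ZT13.

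Rapid immediate early genes, 39 tested of a list of 40, had a median interaction of 0.28 against -0.000498 over all tested genes, and 34 of the 39 (87.2%) were above 0 against 49.7% of all genes. Of the 39, 2 passed (*Egr1* and *Nr4a1*) and 15 had an unadjusted p under 0.05, all above 0 (38.5%, against 1.99% of all genes). In 14 the ASIC1a-/- ZT13 libraries were above the 12 others (35.9%, against 0.31% of all genes). The median change was 0.06 in WT and 0.28 in ASIC1a-/- mice, and 6 of the 39 rose in WT while 18 rose in ASIC1a-/- mice, where 7.52% and 6.72% of all genes rose. *Atf3*, *Egr2* and *Egr4* exceeded 1 CPM in the ASIC1a-/- ZT13 group alone and entered the tests through it. Of the 36 others, 31 were above 0 with a median of 0.26, 14 had an unadjusted p under 0.05 above 0, 16 rose in ASIC1a-/- mice, and 13 had their ASIC1a-/- ZT13 libraries above the rest. The list overlaps the genes that the study named from these libraries, so its count is not independent evidence, and of the 21 tested genes that the study named 3 passed and 14 had an unadjusted p under 0.05 above 0, or 12 of 19 without *Egr2* and *1700016P03Rik*, both admitted through that group. The 29 members outside those names, *Atf3* and *Egr4* among them, had a median of 0.16, with 24 above 0, 5 at an unadjusted p under 0.05 above 0 and none below, and 0 passed.

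Members of the same factor families gave unequal values. *Junb*, a *Fos* partner, was 7.13 ± 0.68 CPM (SD, n = 4) in WT and 12.6 ± 2.06 CPM in ASIC1a-/- mice at ZT13, with an interaction of 0.58, and rose in both genotypes. *Nr4a3* rose in both genotypes as well, by 0.72 and 1.17, while *Nr4a2*, of the same receptor family, had log2 differences of -0.04 and 0.01. *Egr3* had an interaction of 0.48 and *Egr4* of 0.83, the latter at a mean of 0.612 CPM. *Sik1*, a kinase that restrains CREB co-activators, had an interaction of 0.36, and *Trib1* of 0.28.

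Other members named here had values from -0.24 to 0.34. The neuron-specific factor *Npas4* had an interaction of 0.03 and the synaptic gene *Arc* one of 0.18, with unadjusted p of 0.875 and 0.109 (edgeR). *Jun* stood at 0.16, *Ier2* at 0.34 and *Atf3* at 0.15, and *Zfp36*, a factor that destabilizes mRNA, at -0.24. Late or neuron-specific activity-dependent genes had 0 of 23 calls, against 0.019% of all genes, and a median of 0.06. Of the 23, 16 were above 0 (69.6%, against 49.7% of all genes). At an unadjusted p under 0.05 there were 4 above 0 (17.4%, against 1.99% of all genes) and 0 below. The non-coding gene *1700016P03Rik*, which hosts microRNAs, was 1.23, 1.72, 2.21 and 1.75 CPM in ASIC1a-/- mice at ZT13 and 0.392 to 0.794 CPM in the 12 other libraries. Since it exceeded 1 CPM in that group alone, these values are a description. Of the 22 others 15 were above 0, with a median of 0.05, and 3 had an unadjusted p under 0.05 above 0. *Gem*, a small GTPase, had 0.80 (unadjusted p 0.004, edgeR), while *Homer1*, *Pcsk1* and *Nrn1* lay between 0.00 and 0.01. *Bdnf* was 0.13 and *Vgf* 0.17.

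Glucocorticoid-responsive genes, 20 tested, did not move one way. Their median interaction was 0.05, with 10 of 20 above 0, and *Ddit4* was the member that passed. In 6 of the 20 (30%) the ASIC1a-/- ZT13 libraries were above the 12 others, against 0.31% of all genes. This list too overlaps the genes the study named. Of the 17 members outside those names none was called, 7 were above 0 with a median of -0.04, 2 had an unadjusted p under 0.05 above 0 and 2 below, and 3 had their ASIC1a-/- ZT13 libraries above the rest. *Arl4d*, a small GTPase, and *Sgk1*, a kinase induced by glucocorticoids, had interactions of 0.99 and 0.90 (adjusted p = 0.296 and 0.387, edgeR). *Sgk1* was 24.4, 20.6, 23.3 and 24.3 CPM in WT at ZT1, 31.9, 26.4, 34.9 and 25.6 CPM in WT at ZT13, 20.6, 24, 23.8 and 27.7 CPM in ASIC1a-/- mice at ZT1 and 53.3, 40.5, 74.2 and 61.3 CPM in ASIC1a-/- mice at ZT13. All 4 of the last group were above the rest. *Nfkbia* stood at 0.29 and *Tsc22d3*, which encodes GILZ, at 0.15 (unadjusted p 0.0106 and 0.015, edgeR).

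Other targets of the same receptor had an interaction below 0. *Fkbp5*, a co-chaperone of the glucocorticoid receptor, rose by 0.67 in WT and 0.38 in ASIC1a-/- mice, an interaction of -0.30, and the zinc-finger gene *Zbtb16* rose by 1.74 and 1.18, one of -0.57. *Zbtb16* was 25, 23.6, 23.7 and 26.3 CPM in WT at ZT13 and 17.8, 23, 13.9 and 14.9 CPM in ASIC1a-/- mice, and the interaction did not pass (adjusted p = 1, edgeR). *Plin4*, a lipid droplet coat gene with the largest mean rise among genes of at least 5 CPM, went up by 3.01 in WT and 2.60 in ASIC1a-/- mice.

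Clock genes did not pass in either direction. None of 7 activators and none of 10 repressors was called, with medians of 0.02 and -0.00379. *Arntl* fell by 0.33 in WT and by 0.21 in ASIC1a-/- mice (adjusted p = 0.000283 and 0.00788, edgeR), and the interval of the difference was -0.03 to 0.26. Among repressors, 7 of 10 rose in WT and 8 of 10 in ASIC1a-/- mice, against 7.52% and 6.72% of all genes. *Per1* rose by 0.35 and 0.46, *Per2* by 0.60 and 0.49 and *Per3* by 0.36 and 0.33, and the 95% intervals of their interactions were -0.10 to 0.34, -0.32 to 0.10 and -0.24 to 0.16. *Cry1* rose by 0.33 in WT, and its value of 0.18 in ASIC1a-/- mice did not pass (adjusted p = 0.054, edgeR). The interval of that difference, -0.33 to 0.02, included 0. *Bhlhe41*, a repressor of E-box genes, rose by 0.32 and 0.18, and its interaction of -0.14 had an unadjusted p of 0.0482 (edgeR). Among 14 clock output genes none was called, with a median of 0.00226.

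**Figure D3:**
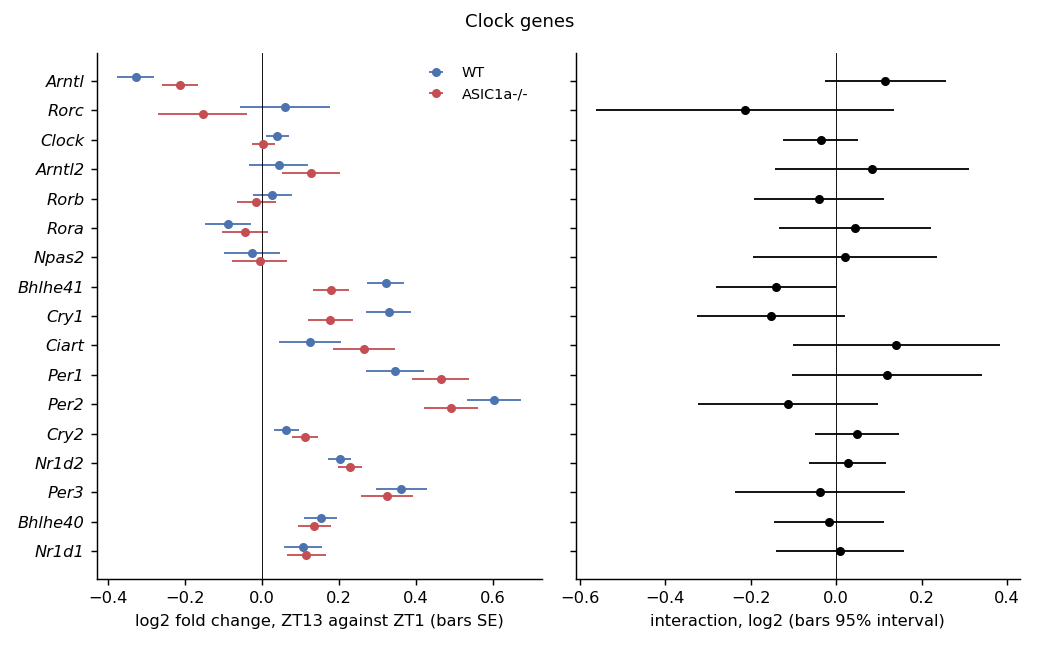
Rows are the 17 clock genes tested, 7 activators above 10 repressors. The left panel plots the log2 fold change from ZT1 to ZT13 in WT (blue) and ASIC1a-/- mice (red) with SE bars, and the right panel the interaction with its 95% interval. *Arntl* lies left of 0 and *Per1*, *Per2* and *Per3* right of 0 in both genotypes, and *Bhlhe41* is the gene whose interval of the interaction does not reach 0.

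Suprachiasmatic nucleus peptides and factors, 13 tested, had a median interaction of -0.23 with 4 above 0 and no call. *Avp*, vasopressin, stood at -0.69 (unadjusted p 0.00917, edgeR), with 44.8, 38.8, 43.6 and 37.6 CPM in WT and 24.8, 44.8, 31.7 and 23.1 CPM in ASIC1a-/- mice at ZT13, ranges that overlapped. *Vip*, the peptide that couples suprachiasmatic neurons, had -0.58, with 3.49 to 9.98 CPM in WT at ZT13. Among 19 feeding, stress and neurohypophysial peptides none passed, and *Oxt*, oxytocin, had -0.71 while *Crh*, the releasing hormone of the stress axis, had 0.51.

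The thyroid axis gave no call among 12 tested genes. *Trh*, thyrotropin-releasing hormone, was 75.9, 96.4, 76 and 80.1 CPM in WT at ZT1 and 78.1, 85.4, 99.3 and 110 CPM at ZT13, and 86.1, 96.6, 94.8 and 74.9 CPM and 81.8, 71.9, 85.1 and 84 CPM in ASIC1a-/- mice. All 4 ranges of *Trh* overlapped, neither change passed, and the interaction was -0.31 (95% interval -0.61 to -0.01, unadjusted p 0.0443, edgeR). *Slco1c1*, a thyroxine transporter of brain vessels, fell in WT by 0.19, and its log2 difference between times was -0.04 in ASIC1a-/- mice, with an interaction of 0.15 (unadjusted p 0.0117, edgeR). *Trhr2*, a receptor of thyrotropin-releasing hormone was 0.949, 0.675, 0.647 and 1.11 CPM in WT at ZT1 and 0.257 to 0.595 CPM in WT at ZT13, and 0.471 to 0.872 CPM in ASIC1a-/- mice at both times. It exceeded 1 CPM in WT ZT1 replicate 4 alone and was tested through that library, so its log2 differences of -1.01 in WT and 0.13 in ASIC1a-/- mice are a description. *Dio2*, which activates thyroid hormone, rose by 0.56 and 0.59.

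Akt and mTOR signalling genes, 24 tested, had no call. Their interactions lay between -0.26 and 0.16, around a median of 0.01. *Akt1* had 0.03 and *Mtor* 0.02, both at steady levels (170 to 185 CPM and 150 to 162 CPM). *Pik3r1*, a regulatory subunit of PI3 kinase, had 0.08, with the smallest unadjusted p of the list, 0.0235 (edgeR). Values are mRNA levels and say nothing of phosphorylation.

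Temperature-linked transcripts gave no call, with 16 heat shock genes and 3 cold-inducible genes tested. *Rbm3*, an RNA-binding protein induced by mild cooling, rose by 0.83 in WT and 0.77 in ASIC1a-/- mice, with an interaction of -0.06 (95% interval -0.25 to 0.12). It was 55.8, 52.3, 54.6 and 53 CPM at ZT1 and 92.5, 98.4, 102 and 90.7 CPM at ZT13 in WT. In ASIC1a-/- mice *Rbm3* was 64.4, 51.2, 52.3 and 52.1 CPM and then 98.9, 89.2, 98 and 88.4 CPM. *Cirbp* rose by 0.30 and 0.24. Of the 16 heat shock genes 3 had an interaction above 0, against 49.7% of all genes, with a median of -0.03. Their change between times passed in 6 in WT and 9 in ASIC1a-/- mice (13.3% and 11.3% of all genes). *Hspe1*, the member of smallest p, had log2 differences of -0.07 and -0.23 and an interaction of -0.15 (unadjusted p 0.0402, edgeR). *Hspa1b* stood at -0.67 (95% interval -1.55 to 0.20). *Hspa8*, *Hsph1* and *Hsp90aa1*, major chaperones, fell by 0.16, 0.24 and 0.20 in WT and by 0.16, 0.24 and 0.18 in ASIC1a-/- mice.

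**Figure D4:**
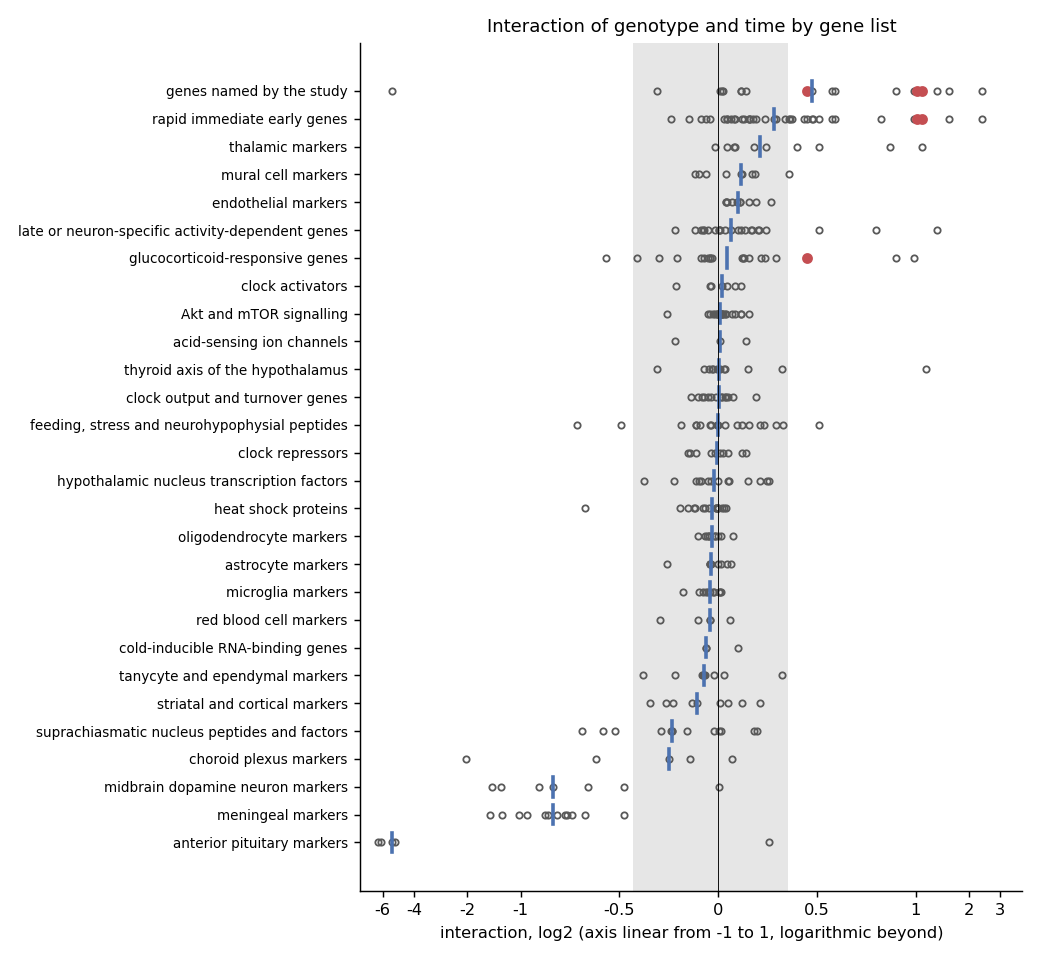
Rows are the 28 gene lists, ordered by their median (blue bar), and each circle is the interaction of 1 tested member on the log2 scale, with the axis linear between -1 and 1 and logarithmic beyond. Filled red points passed the test, and the grey band spans the central 95% of all 15808 genes, -0.43 to 0.35. Rapid immediate early genes reach to the right of the band, and anterior pituitary, meningeal and midbrain dopamine markers lie mostly to its left.

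Over the transcriptome, the day-night change passed in 2099 genes in WT (13.3%) and in 1792 in ASIC1a-/- mice (11.3%), of which 1093 were shared, 52.1% of the first and 61.0% of the second. The contrasts share no library, and of the genes called in WT 97.5% had a log2 difference of the same sign in ASIC1a-/- mice, against 74.2% of all tested genes. There were 1006 genes called in WT and not in ASIC1a-/- mice, and the interaction passed in 0 of them by edgeR (150 at an unadjusted p under 0.05), while 94.9% had the same sign in both genotypes. The reverse held 699 genes, of which *Nr4a1* and *Ddit4* had an interaction that passed. These counts moved with single libraries, to 1394 in WT without WT ZT1 replicate 4, to 1320 in WT without WT ZT13 replicate 4, and to 1162 in ASIC1a-/- mice without ASIC1a-/- ZT13 replicate 1. A gene called in 1 genotype alone was therefore not shown to differ between genotypes, with the exception of these 2.

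The mean change over genotypes, a contrast orthogonal to the interaction in this balanced design, passed in 4170 genes (26.4%). The larger change was in ASIC1a-/- mice in 45.4% of them, and the interaction signed by the direction of the mean change had a median of -0.00754, with quartiles of -0.05 and 0.04. For genes higher at ZT13 the share with the larger change in ASIC1a-/- mice was 48.6%, and for those lower at ZT13 it was 41.6%. On log2 TPM the share was over an even split, at 52.3%, so no direction is drawn from it. *Fabp7*, a fatty acid binding protein of glia, fell by 1.60 in WT and 1.59 in ASIC1a-/- mice, and *Mmp14*, a membrane metalloproteinase, by 1.18 and 1.04. *Hif3a* rose by 1.42 and 1.64.

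**Figure D5:**
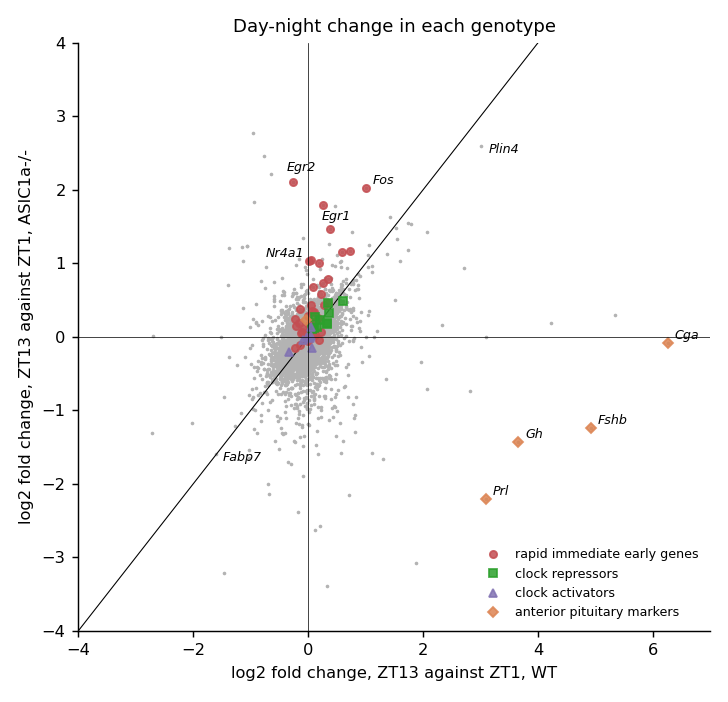
Each point is a gene, with its log2 fold change from ZT1 to ZT13 in WT on the x axis and in ASIC1a-/- mice on the y axis, and the diagonal marks equal change. Coloured symbols are 4 gene lists, and 10 genes lie outside the plotted range. *Egr1*, *Nr4a1*, *Egr2* and *Fos* lie above the diagonal, clock genes lie close to it, and *Gh*, *Prl*, *Fshb* and *Cga* lie far to the right and below it.

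The precision of the interaction set what could be seen. The median SE was 0.08, and 94.2% of genes had a 95% interval inside -1 to 1, while 78.1% had one inside -0.5 to 0.5. A difference of that size or more in the change would lie outside the interval of those genes. *Egr2*, a gene with few counts, had an interval from 1.48 to 3.28. The pituitary hormones varied widely between libraries of a group, and their intervals were wider by far. *Cga*, 1 of them, was 0.142 to 7.79 CPM in WT at ZT13, with an interval from -10.46 to -2.2.

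Transcripts of neighbouring tissue moved with the contrast. Of 11 anterior pituitary markers 5 were tested, with a median interaction of -5.30, and the hormone genes *Gh*, *Prl*, *Fshb* and *Cga* each had an unadjusted p under 0.05 below 0, though none passed. *Prl*, prolactin, was 9, 1.65, 1.33 and 1.64 CPM in WT at ZT13, where 1 library stood above the rest, and 0.14 to 2.38 CPM in both groups at ZT1. In ASIC1a-/- mice at ZT13 it was 0.654, 0.17, 0.0236 and 0.111 CPM. The summed level of these 4 hormone genes was 0.534 to 3.54 CPM in WT at ZT1, 5.87 to 40.8 CPM in WT at ZT13, 4.76 to 14.1 CPM in ASIC1a-/- mice at ZT1 and 0.636 to 9.75 CPM in ASIC1a-/- mice at ZT13. The 6 markers not tested, *Pou1f1* among them, were under the filter. The fit with *Gh* given above cannot decide the part of pituitary tissue, since *Gh* itself varied with the contrast (interaction -5.09). That part was not tested. In whole tissue, fewer cells of a type and less RNA per cell cannot be told apart.

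Meningeal markers had an interaction below 0 in 12 of 12, with a median of -0.84 and no call. Their sum was 2000 CPM in ASIC1a-/- ZT1 replicate 4 and 1220 CPM in ASIC1a-/- ZT13 replicate 2, and 291 to 464 CPM in the 8 WT libraries. The ASIC1a-/- ZT1 group had a median sum of 527 CPM, so replicate 4 was not its only high library. Without the 2 libraries of highest sum 6 genes passed, *Egr1*, *Nr4a1*, *Ddit4*, *Arl4d* and *Sgk1* above 0 and *Hes5* below (*Hes5* was named after its values were seen). The meningeal markers were not examined in that fit. Midbrain dopamine neuron markers had a median of -0.84, with sums of 223 to 446 CPM in ASIC1a-/- mice at ZT1 and 101 to 284 CPM in the other groups. Thalamic markers were above 0 in 9 of 10 and endothelial markers in 10 of 10, with medians of 0.21 and 0.10 and no call. WT ZT1 replicate 4 stood apart in thalamic markers, where *Tcf7l2*, a thalamic transcription factor, reached 36.4 CPM and *Ramp3* 7.7 CPM. The ranges of these genes over replicates 1 to 3 of the group were 15.7 to 22.4 CPM and 2.32 to 4.27 CPM. Without it 6 of the 10 thalamic markers were above 0, with a median of 0.05. Of the genes above, *Egr1*, *Fosb*, *Arl4d* and *Sgk1* had the lowest value of the ASIC1a-/- ZT13 group in replicate 2 (56.9, 4.46, 4.52 and 40.5 CPM), above the 12 other libraries all the same, and *Nr4a1* had its highest there (24.9 CPM). The part of dissection in the interactions was not tested.

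The labels were checked on the targeted gene and on the tissue. *Asic1* was 101 to 106 CPM in WT and 64.9 to 70 CPM in ASIC1a-/- mice at ZT1, and 97.1 to 102 CPM and 69.9 to 71.9 CPM at ZT13, so every ASIC1a-/- library was below every WT library while reads of the gene remained in all. Its interaction was 0.14 (95% interval 0.06 to 0.23, adjusted p = 1, edgeR). All 14 transcription factors of hypothalamic nuclei were detected, among them *Nkx2-1* at a mean of 22.6 CPM, with a summed level of 196 to 240 CPM. The total of expected counts was 34888522 to 42326259 per library.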

How the data were processed

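RNA of whole hypothalamus was sequenced from 16 mice. Per the labels and the methods, the authors trimmed reads with cutadapt 1.8, mapped them to GRCm38 transcripts with STAR 2.5.3a, estimated isoform abundance with RSEM 1.2.31 and counted reads per gene with HTSeq 0.9.1 for their own tests. The files hold RSEM gene tables, so the counts tested here are not those the study tested. The submitters' notes also list mm9, and the methods and the labels name different kits. The expected counts deposited by the authors are RSEM estimates per gene, not normalized, of which 4.85% were not whole. The TPM values deposited by the authors are scaled by transcript length and library total and served as an alternative. RSEM divides reads among similar genes, and strand is not given in the sources used here. Symbols and positions are from GENCODE M21 (55141 of 55401 identifiers matched).

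Expected counts were rounded and tested by edgeR's quasi-likelihood method (edgeR 4.0.16, R 4.3.3) with TMM scaling, 4 group means and 12 residual degrees of freedom, on genes above 1 CPM in at least 1 library, the filter of the study. Tests were two-sided, p values were Benjamini-Hochberg adjusted over 15808 genes within a contrast, and genes passed at an adjusted p under 0.05. SE came from the log2 fold change and F. CPM in the text are TMM-normalized. On simulated counts the interaction test recovered 76.1% of genes set at a log2 of 0.5, 91% at 1 and 98.5% at 2, with 4 false calls among 15639 genes. There 67, 67 and 66 genes were changed at once, more than the 3 called in the real data, which eases the adjusted threshold, so recovery of a lone gene was not tested.

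The rule named every gene that passed, the 6 of smallest p outside the threshold, all clock genes and genes the study named, up to 4 members of each other list by smallest p, and the 5 largest mean rises and falls of at least 5 CPM. Further list members were given for their known role. The members and lists were chosen with earlier results of these data known. Alternatives were DESeq2 1.42.0, limma-voom (limma 3.58.1), log2(TPM + 1), log2(TPM + 0.1), other size factors and filters, unrounded counts, other thresholds, *Gh* as a covariate, a block for the replicate number, and libraries left out. Libraries of a group differed beyond counting error (chi-square over degrees of freedom 3.18 to 11.3 in 24 pairs). Figures used matplotlib 3.10.9 and Python 3.11.15. The labels name no batch. The symbol *Gm49980*, named by the study, was not among the symbols used here. Whether that gene was tested under another name was not checked.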

Additional observations from a re-analysis of the deposited data

Results flagged for a closer look

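The day-night change differed between genotypes, by the test of the difference itself, in *Egr1* (interaction 1.08), *Nr4a1* (1.02) and *Ddit4* (0.45), all larger in ASIC1a-/- mice.

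A library stood far from the other 3 of its group in 34 of 520 group values, those of the 130 named genes in 4 groups. Chance marks about 1 in 20 groups of 4 in this way. Meningeal genes were high in ASIC1a-/- ZT13 replicate 2, with *Col1a2* at 24.1 CPM, *Aldh1a2* at 11.8 CPM and *Slc13a4* at 17.6 CPM. The choroid plexus gene *Kcnj13* (1.38 CPM) and the smooth muscle gene *Acta2* (7.46 CPM) were high there too. Of other choroid plexus genes, *Kl* (13.9 CPM) and *Clic6* (20.5 CPM) were highest of the group in that library, and *Ttr* (0.311 CPM) was lowest. ASIC1a-/- ZT1 replicate 4 was high in *Aldh1a2* (27.3 CPM) and *Kcnj13* (3.49 CPM). *Dcn* stood apart in WT ZT13 replicate 3 at 6.95 CPM, and *Ttr* in WT ZT1 replicate 3 at 1.07 CPM.

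Hormone and transmitter genes stood apart in 3 libraries. *Prl* was 9 CPM in WT ZT13 replicate 1, *Gh* 11.5 CPM in ASIC1a-/- ZT1 replicate 2, and the dopamine neuron genes *Th* and *Slc10a4* 71 and 12.3 CPM in WT ZT1 replicate 1. *Ramp3*, a thalamic marker, was 4.08 CPM in ASIC1a-/- ZT13 replicate 4.

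Of genes induced by activity, *Arl4d* was 4.52 CPM in ASIC1a-/- ZT13 replicate 2, below the other 3 of its group, and *1700016P03Rik* 0.727 CPM in ASIC1a-/- ZT1 replicate 1. Of clock genes, *Nr1d2* stood apart in WT ZT13 replicate 3 (154 CPM) and ASIC1a-/- ZT13 replicate 1 (150 CPM), *Per3* in WT ZT1 replicate 1 (40.7 CPM) and *Ciart* in WT ZT13 replicate 1 (10.4 CPM).

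In WT ZT13 replicate 1, *Gfap* was 318 CPM, *Six6* 8.66 CPM and *Ly6c1* 20 CPM, and *Hspa5* was 476 CPM in WT ZT13 replicate 4. ASIC1a-/- ZT1 replicate 1 stood apart for *Gm19439* (2.91 CPM), *Rbm3* (64.4 CPM) and *Mtor* (155 CPM), and ASIC1a-/- ZT1 replicate 2 for *Srsf5* (279 CPM). At ZT13 in ASIC1a-/- mice, *Sim1* (23.2 CPM), *Hmx3* (1.7 CPM) and *Asic2* (64.6 CPM) stood apart in replicate 3, *Tmem212* (2.56 CPM) in replicate 1, *Nnat* (574 CPM) in replicate 2 and *Slco1a4* (39 CPM) in replicate 4.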

How the results depend on the processing

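Interaction calls were 3 (3 above 0, 0 below) with size factors of DESeq2, library size only, edgeR's own filter, limma-voom, unrounded counts and an adjusted p under 0.01, and 2 on both TPM scales. They were 17 (11 above, 6 below) with no filter, 13 (10 and 3) with DESeq2, 6 (5 and 1) without the libraries high in meningeal markers, 5 (5 and 0) at an adjusted p under 0.1, 62 (37 and 25) at an unadjusted p under 0.005 and 0 with *Gh* as a covariate. Omission of each library gave 3 to 7 in total, 3 to 7 above 0 and 0 to 1 below. The higher totals were 7 without WT ZT13 replicate 4, 6 without ASIC1a-/- ZT13 replicate 2 and 5 without WT ZT1 replicate 2. Calls of rapid immediate early genes were 7 with no filter or DESeq2, 1 on both TPM scales, 0 with *Gh*, 8 at an unadjusted p under 0.005, 4 at an adjusted p under 0.1 and 2 to 5 on omission of a library. Their median was 0.255 on log2(TPM + 1), 0.333 with *Gh* and 0.235 to 0.333 on omission of a library.

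The change between times passed in 879 and 882 genes in WT, 971 and 969 in ASIC1a-/- mice and 2643 and 2654 for the mean on log2(TPM + 1) and log2(TPM + 0.1), in 260 (WT) and 1009 (ASIC1a-/-) genes with *Gh*, in 1099 in ASIC1a-/- mice without the libraries high in meningeal markers, and in 2726 in ASIC1a-/- mice at an adjusted p under 0.1. At an adjusted p under 0.01 the counts were 889, 712 and 2428. Omission of a library gave 1320 to 2190 in WT, 1162 to 1827 in ASIC1a-/- mice and 3665 to 4209 for the mean. The share with the larger change in ASIC1a-/- mice was 52.3% and 52.7% on the TPM scales, 33.8% with *Gh* and 41.8% to 51.2% on omission of a library. The cause of these shifts was not tested. Among the interactions of named genes, none called by the main test or by an alternative changed sign under that alternative, and of 3891 values called by neither 111 had the other sign.

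With the replicate number as a block, 5 genes passed, 3 above 0 and 2 below, adding *Gh* and *Dbi*, the latter named after its values were seen. The labels do not say whether the numbers pair the mice. Correlations of libraries of the same number ranged from -0.316 to 0.217 over 24 pairs, and 4 were over 0.1. Of 16 libraries, 5 correlated best with their own number. These values showed no pairing but cannot exclude it, since paired mice may correlate weakly.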
